A study of Capra hircus with 25 samples.

Results

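The liver microRNAs (miRNAs) of Laiwu black goats (Capra hircus) were compared between kids of 8 weeks and kids of 2 weeks of age. Each age had 5 liver libraries, out of 25 libraries that also covered 1 day, 4 weeks and 12 weeks. No genotype or treatment apart from age is given in the labels, and all kids are described by the same breed and tissue. The labels do not say whether the 5 libraries of an age came from 5 kids, and p-values measure only the spread between these libraries. Members of the comparison were the table entries at 1 RPM (reads per library, scaled to one common total) or more in at least 5 of these 10 libraries. Of the 463 entries 85 stayed under this limit, and the others, 359 under goat names and 19 under sheep names (prefix oar-), were the members. Of these, 3 repeat the values of another entry. All 10 libraries held 338 of the members at 1 RPM or more, and 0 members reached 1 RPM at one age only. In 19 members all 5 libraries of just one age reached 1 RPM, 8 weeks in 5 of them and 2 weeks in 14. Just inside the limit, at 5 libraries, stood 5 members, such as miR-10b-3p with means of 1.1 RPM at 8 weeks and 3.93 RPM at 2 weeks, and just outside it, at 4 libraries, stood 12 entries, such as miR-412-3p with 0.77 RPM at 8 weeks and 1.25 RPM at 2 weeks.

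miRNAs are short RNAs cut from the 5' and 3' arms of a hairpin precursor (5p and 3p) and loaded into Argonaute proteins, where bases near their 5' end, the seed, pair with messenger RNAs and repress them. miRNAs with one seed form a family and can share targets, while miRNAs encoded next to each other are often cut from one transcript and share its control. In the liver miR-122 is the dominant hepatocyte miRNA. A kid is born with a small rumen and lives on milk, and over its first weeks it moves toward solid feed and rumen fermentation; how these kids were fed and when they were weaned is not stated in the labels.

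The 10 libraries held 7682515 to 11344677 reads each by the value of 1 read (8288097 to 10828549 at 8 weeks, 7682515 to 11344677 at 2 weeks), so that 1 RPM stood for 7.68 to 11.35 reads and 3 reads for 0.264 to 0.39 RPM. miR-122, the defining hepatocyte marker, ranked first in mean RPM over the 10 libraries. On the first principal component of the members (39.0% of the variance) the 8-week libraries lay between 4.37 and 6.50 and the 2-week libraries between −7.17 and −3.62, and each library correlated with the others of its age at a median r of 0.984 to 0.993. Because RPM divides by a library total, every value is a share of the miRNA reads, and because liver tissue was sampled and not one cell type, fewer cells of a type and less RNA per cell cannot be told apart.

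At 8 weeks, 22 miRNAs rose and 85 fell relative to 2 weeks, in limma on log2(RPM + 1) with Benjamini-Hochberg adjusted p under 0.05 over all members. These calls were 28.3% of the members, 5.82% for those higher and 22.5% for those lower, and 151 members had an unadjusted p under 0.05. A change of at least 2-fold was seen in 22 of the calls, 6 higher and 16 lower. No library of one age lay within the range of the other in 77 members (20.4%), 14 higher (3.7%) and 63 lower (16.7%) at 8 weeks, and 74 of these 77 were called. The balance of the directions rested on the scaling: the median log2 change of all members was −0.23 in the deposited RPM, −0.05 after median-ratio scaling and −0.08 after scaling by trimmed means (TMM). The calls split into 50 higher and 53 lower after median-ratio scaling (13.2% and 14% of the members, 27.2% together) and 47 higher and 58 lower after TMM (12.4% and 15.3%, 27.8% together). Under all 3 scalings 75 miRNAs were called with one sign, the 22 higher and 53 of the 85 lower. The changes below are in the deposited RPM and stand against that median of −0.23. Counts of calls in lists stand against the shares of all members given above. Values after median-ratio scaling are given beside a part of the changes only, so that a missing value does not mean an unchanged result.

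**Figure D1:**
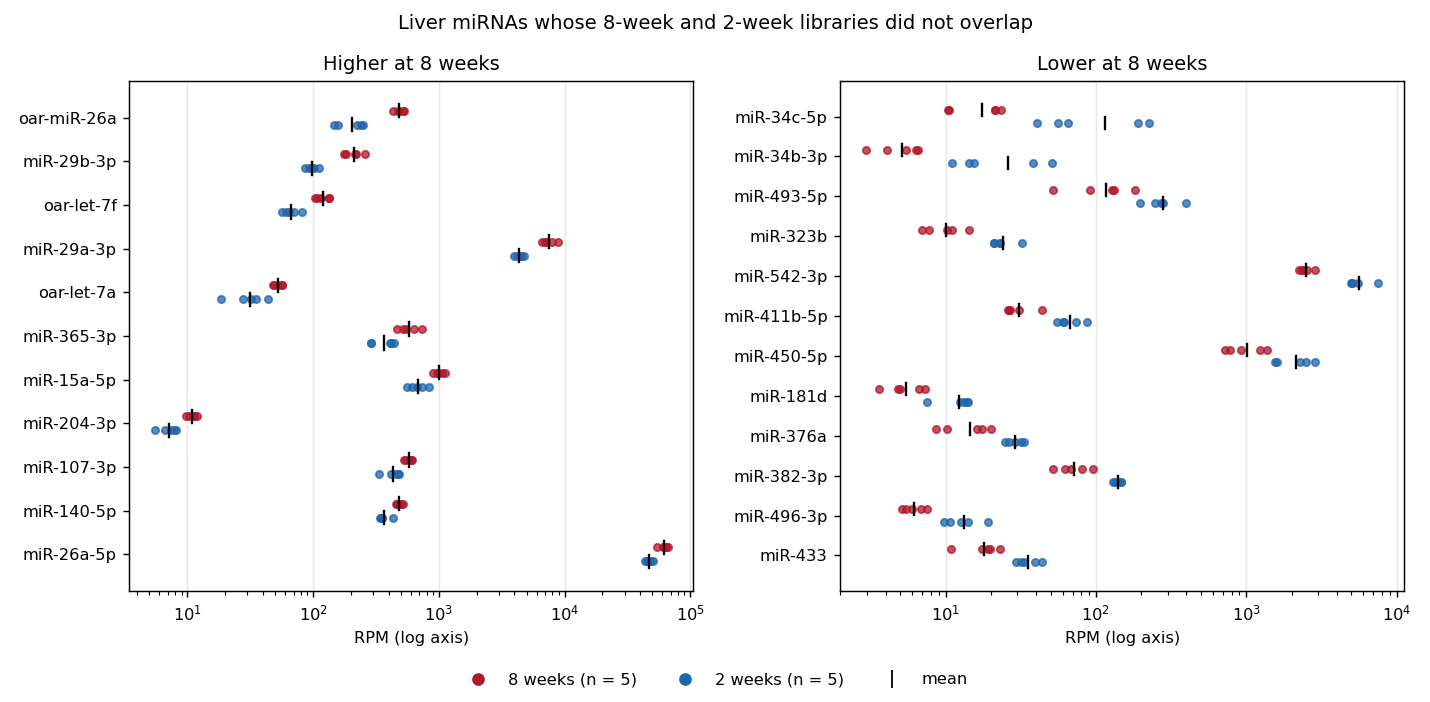
RPM on a log axis for the 11 highest increases (left) and the 12 deepest decreases (right) among calls whose higher mean reached 10 RPM and whose ages did not overlap, with 1 point per library, 8 weeks above 2 weeks (n = 5 each), and a bar at each mean. On this axis the widest gap between means is that of miR-34c-5p, 17.5 RPM at 8 weeks against 115 RPM at 2 weeks, and its 2-week libraries also spread most.

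The deepest falls were those of miR-34b and miR-34c, neighbours on one precursor transcript that are known in mammals as transcriptional targets of p53 and as miRNAs of multiciliated and germ cells. miR-34c-5p measured 21.5, 21.5, 23.5, 10.4 and 10.6 RPM at 8 weeks, against 56.1, 40.4, 189.5, 64.7 and 225 RPM at 2 weeks. All 8-week libraries lay below all 2-week libraries, and at 2 weeks replicates 3 and 5 stood well above the other 3. Its level at 8 weeks was 0.19 of that at 2 weeks on the log2(RPM + 1) scale (log2 change −2.40 ± 0.45 SE, adjusted p = 0.00303; after median-ratio scaling −2.21, adjusted p = 0.00451). miR-34b-3p measured 5.45, 6.39, 6.61, 4.11 and 2.96 RPM at 8 weeks, against 14.4, 11.02, 38.1, 15.4 and 51.4 RPM at 2 weeks. The same 2 libraries of 2 weeks were high, and the ages again did not overlap (log2 change −1.95 ± 0.38 SE, adjusted p = 0.00383). Their partner arms, named after their values were seen, were scarce: miR-34c-3p lay between 0.28 and 1.57 RPM at 8 weeks and between 1.55 and 14.2 RPM at 2 weeks, and miR-34b-5p between 0.12 and 1.39 RPM at 8 weeks and between 1.23 and 11.6 RPM at 2 weeks, with the 8-week values in part near or under the value of 3 reads. Both were called, miR-34c-3p with a log2 change of −1.53 (adjusted p = 0.0183) and miR-34b-5p with −1.38 (adjusted p = 0.0235), the last in 7 of the 10 fits that leave out 1 library. It missed the threshold without 2-week replicate 3 and without 8-week replicates 2 or 5, with adjusted p of up to 0.064. In the family, 0 members rose and 4 of 6 fell, against 5.82% and 22.5% of all members. The median log2 change was −1.46 against −0.23 over all members. After median-ratio scaling the same 4 fell, against 14% of all members. The other two did not pass the test. miR-34a, which is encoded apart and is also a p53 target, had 54.4 ± 15.2 RPM at 8 weeks and 58.9 ± 15.5 RPM at 2 weeks (log2 change −0.12 ± 0.23 SE, adjusted p = 0.701; after median-ratio scaling 0.07), and miR-449a-5p, the relative with the same seed in ciliated cells, had 2.25 ± 1.11 RPM at 8 weeks and 1.61 ± 0.97 RPM at 2 weeks (adjusted p = 0.409).

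A pair of clusters that lie on the X chromosome in human fell almost as whole units. In the cluster of miR-424, miR-450 and miR-542, 6 of 6 members fell (median log2 change −0.87), against 22.5% of all members. All 6 also fell after median-ratio scaling, against 14% of all members, and in every fit without 1 library. The miR-424 of this cluster shares the seed of miR-15 and miR-16 and restrains cyclins and their kinases. miR-542-3p, an abundant miRNA reported in human cells to target survivin, had the smallest p of the comparison. It measured 2359.8, 2237, 2542, 2386 and 2859 RPM at 8 weeks, against 5489, 4947, 7560, 5036 and 5029.7 RPM at 2 weeks. The 8-week libraries were tightly grouped at less than the lowest 2-week library, and 2-week replicate 3 was the highest of all (log2 change −1.17 ± 0.13 SE, adjusted p = 0.00025; after median-ratio scaling −0.97, adjusted p = 0.000711). miR-450-5p measured 922, 783, 1363, 717 and 1240.2 RPM at 8 weeks, against 2845, 1563, 2484, 1607 and 2280.2 RPM at 2 weeks. Its ages did not overlap either, and within each age its libraries spread more than those of miR-542-3p (log2 change −1.11 ± 0.22 SE, adjusted p = 0.00383). miR-424-5p had 645 ± 137 RPM at 8 weeks and 1017 ± 111 RPM at 2 weeks (SD, n = 5 each; log2 change −0.68 ± 0.15 SE, adjusted p = 0.00691). The summed level of the 6 members was 3570.4 to 4933 RPM at 8 weeks and 7582 to 11213 RPM at 2 weeks, without overlap.

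In the second of these clusters, miR-188, miR-362, miR-500, miR-502, miR-532 and miR-660, 9 of 10 members fell and 0 rose (median log2 change −0.68). Of all members 22.5% fell and 5.82% rose. After median-ratio scaling 6 of 10 fell, against 14% of all members. In the RefSeq annotation ARS1.2 the miR-362, miR-500, miR-502 and miR-660 genes of goat lie within CLCN5, which encodes a chloride and proton exchanger of endosomes. miR-660 measured 139, 125, 140.9, 138 and 131 RPM at 8 weeks, against 219, 213, 239, 217.5 and 226 RPM at 2 weeks. Every 8-week value lay far below every 2-week value, and the spread within each age was small (log2 change −0.72 ± 0.11 SE, adjusted p = 0.00112; after median-ratio scaling −0.53, adjusted p = 0.00811). miR-532-5p measured 167, 169.9, 177, 194.95 and 173 RPM at 8 weeks, against 275, 296, 318, 253 and 314 RPM at 2 weeks, again without overlap (log2 change −0.72 ± 0.12 SE, adjusted p = 0.00187). The member that did not pass was miR-362-5p, with 178 ± 14.3 RPM at 8 weeks and 228 ± 30.1 RPM at 2 weeks (log2 change −0.35 ± 0.13 SE, adjusted p = 0.0541). Over the 10 members the summed level was 563 to 634 RPM at 8 weeks and 795 to 949 RPM at 2 weeks.

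The DLK1-DIO3 region holds one of the largest miRNA clusters of mammals, expressed from the maternal chromosome only and at its highest in embryonic and perinatal tissues. It supplied 72 members of 89 entries, of which 0 rose and 36 fell, against 5.82% and 22.5% of all members. That is 36 of the 85 decreases of the comparison. The median log2 change of the 72 members was −0.59 against −0.23 over all members, and after median-ratio scaling 29 fell at a median of −0.40 against −0.05 over all members. All 72 members had a log2 change below 0 in the deposited RPM, and 70 of 72 after median-ratio scaling. How many passed depended on single libraries, from 30 to 46 over the fits that leave out 1 library. Summed over the members, the level was 10713 to 18385 RPM at 8 weeks and 16515 to 24540.2 RPM at 2 weeks, so that the highest 8-week library, replicate 2, stood above the lowest 2-week library, replicate 5. 1 of the 72 entries, miR-376e-5p, has the same values in every library as miR-376b-5p, and reads of such copies cannot be assigned between them.

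Of the members of this region at 10 RPM or more and without overlap, miR-493-5p fell most. It measured 52.2, 129, 91.2, 132.6 and 182 RPM at 8 weeks, against 280.3, 397, 246, 273 and 195.4 RPM at 2 weeks. The ages did not overlap, although the highest 8-week library came close to the lowest 2-week library, replicate 5 in both cases (log2 change −1.32 ± 0.29 SE, adjusted p = 0.00691; after median-ratio scaling −1.12, adjusted p = 0.0129). miR-323b measured 7.71, 14.4, 6.93, 11.03 and 10.2 RPM at 8 weeks, against 23.0, 32.0, 23.1, 21.1 and 20.96 RPM at 2 weeks. Each age was compact apart from 2-week replicate 2, and the 8-week values were less than the 2-week ones throughout (log2 change −1.20 ± 0.20 SE, adjusted p = 0.00197). miR-382-3p measured 51.8, 94.96, 62.1, 68.4 and 81.3 RPM at 8 weeks, against 147.6, 146.2, 139, 131 and 133.3 RPM at 2 weeks. Its 2-week libraries lay close together, above every 8-week library (log2 change −0.98 ± 0.16 SE, adjusted p = 0.00197). 4 further members, miR-411b-5p, miR-376a, miR-496-3p and miR-433, fell with log2 changes of −1.12, −1.02, −0.96 and −0.96, with adjusted p between 0.00187 and 0.00616 and no overlap between ages. Below 10 RPM, oar-miR-431, named after its values were seen, had 0.24, 1.21, 0.85, 1.78 and 1.2 RPM at 8 weeks, against 10.2, 5.73, 3.81, 3.55 and 3.77 RPM at 2 weeks, again without overlap (log2 change −1.60 ± 0.29 SE, adjusted p = 0.00303).

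Among the 3 most abundant members of the region, 1 fell and the other two did not pass the test. miR-369-3p measured 1276, 1816, 1266, 1364 and 1899 RPM at 8 weeks, against 2505, 2492, 2434, 2246 and 2007 RPM at 2 weeks. Its ages did not overlap (log2 change −0.63 ± 0.14 SE, adjusted p = 0.00679; after median-ratio scaling −0.44, adjusted p = 0.0304). miR-379-5p had 2755 ± 711 RPM at 8 weeks and 3688 ± 723 RPM at 2 weeks (log2 change −0.44 ± 0.18 SE, adjusted p = 0.0913), and miR-411a-5p had 2381 ± 653 RPM at 8 weeks and 3024 ± 705 RPM at 2 weeks (log2 change −0.36 ± 0.20 SE, adjusted p = 0.195). miR-411a-5p and miR-411b-5p carry names of one family and are encoded in one stretch of the cluster, yet their log2 changes were −0.36 and −1.12; the difference between them was not tested. By RefSeq neighbourhood (ARS1.2, genes within 10 kb of each other), the miR-379 to miR-656 stretch gave 24 decreases in 52 members. After median-ratio scaling it gave 17 in 52. The shares of all members were 22.5% and 14%. The group of miR-127, miR-136, miR-432, miR-433, miR-493 and miR-665 gave 7 in 9, also after median-ratio scaling. In that annotation the miR-127, miR-136, miR-432 and miR-433 genes of this group lie within RTL1, a paternally expressed gene of the same region, and miRNAs within RTL1 are transcribed in the opposite direction and act against its messenger RNA in mouse.

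miR-335 and miR-483 lie in other imprinted genes of mammals, MEST and IGF2. miR-335-5p fell. It measured 3548, 5159, 4789, 3513 and 2509 RPM at 8 weeks, against 5299, 6094, 8624, 7389 and 6968 RPM at 2 weeks, with every 8-week library below the lowest 2-week one (log2 change −0.84 ± 0.19 SE, adjusted p = 0.00691; after median-ratio scaling −0.65, adjusted p = 0.0266). miR-335-3p (395 ± 158 RPM at 8 weeks and 478 ± 68.0 RPM at 2 weeks) and miR-483 (10.6 ± 3.24 RPM at 8 weeks and 15.9 ± 4.58 RPM at 2 weeks) did not pass, with adjusted p of 0.262 and 0.102. Of the 3 members of these hosts, 1 fell and 0 rose, against 22.5% and 5.82% of all members. The counts were the same after median-ratio scaling.

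Among called miRNAs without overlap the largest rises in log2 change were those of oar-miR-26a (1.28), miR-29b-3p (1.09), oar-let-7f (0.83) and miR-29a-3p (0.78). miR-26a-5p under its goat name rose by only 0.39. The miR-29 family represses collagens and other matrix genes and DNA methyltransferases, and its loss marks liver fibrosis in mouse and human. Its 3p arms, the main strands, rose in all 3 members, and the 5p arms did not pass. Thus 3 of 6 rose and 0 fell, against 5.82% and 22.5% of all members, at a median log2 change of 0.50. After median-ratio scaling 5 of 6 rose, against 13.2% of all members, with a median of 0.68. miR-29a-3p measured 7997, 6676, 7023, 7156 and 8882 RPM at 8 weeks, against 4184, 3961, 4513, 4726 and 4508 RPM at 2 weeks. The lowest 8-week library lay well above the highest 2-week one (log2 change 0.78 ± 0.10 SE, adjusted p = 0.000369; after median-ratio scaling 0.98, adjusted p = 0.000102). miR-29b-3p measured 219, 184, 176, 217.4 and 258 RPM at 8 weeks, against 97.3, 86.7, 102, 111 and 92.3 RPM at 2 weeks. It was 2.13-fold higher at 8 weeks on the log2(RPM + 1) scale, the same clear separation at a level many times lower than that of miR-29a-3p (log2 change 1.09 ± 0.14 SE, adjusted p = 0.000369). miR-29c-3p measured 129, 131, 87.9, 121 and 124 RPM at 8 weeks, against 98.4, 75.3, 67.2, 68.7 and 82.3 RPM at 2 weeks. Here 8-week replicate 3 was low and fell within the 2-week range (log2 change 0.59 ± 0.16 SE, adjusted p = 0.0135). The summed level of the family was 7019.6 to 9299.6 RPM at 8 weeks and 4148 to 4935 RPM at 2 weeks.

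miR-26a-5p, which restrains cell cycle genes and is reduced in human liver cancer, was the only one of the 10 most abundant miRNAs to pass the test. It measured 60861, 54551, 64619.9, 65953 and 62615 RPM at 8 weeks, against 45564, 50799, 45995, 48757 and 43923 RPM at 2 weeks. The ages did not overlap, and the gap between them was small beside the level (log2 change 0.39 ± 0.07 SE, adjusted p = 0.00303; after median-ratio scaling 0.59, adjusted p = 0.000845). The entry under the sheep name oar-miR-26a showed the largest rise of the miRNAs without overlap, with 515, 482.7, 473, 429.9 and 527 RPM at 8 weeks, against 224, 240.2, 158, 251 and 145.4 RPM at 2 weeks (log2 change 1.28 ± 0.17 SE, adjusted p = 0.000369). The labels do not say how reads were divided between entries of near-identical sequence, so that this rise is uncertain as that of a separate miRNA. miR-26b-5p, the closest relative, had 19716 ± 595 RPM at 8 weeks and 17244 ± 1273 RPM at 2 weeks (log2 change 0.20 ± 0.07 SE, adjusted p = 0.0638; after median-ratio scaling 0.39, adjusted p = 0.0111). Of the 4 family members 2 rose and 0 fell, against 5.82% and 22.5% of all members. After median-ratio scaling 3 rose, against 13.2% of all members.

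miR-15a and miR-16a, a pair on one precursor transcript that represses BCL2 and cyclins, rose while miR-424 of the same family fell. miR-15a-5p measured 1069.9, 896, 966, 1127 and 983 RPM at 8 weeks, against 669, 562, 608, 833 and 734 RPM at 2 weeks. The ages did not overlap (log2 change 0.57 ± 0.13 SE, adjusted p = 0.00691). miR-16a-5p, the more abundant of the pair, had 12612 ± 1428 RPM at 8 weeks and 9434 ± 1286 RPM at 2 weeks, with an overlap of 1 library of each age (log2 change 0.42 ± 0.11 SE, adjusted p = 0.0142). Over the 12 members of this family 2 rose and 2 fell, against 5.82% and 22.5% of all members. After median-ratio scaling 5 rose and 2 fell. Both decreases were those of miR-424-5p and miR-424-3p, which are encoded with miR-450 and miR-542.

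The let-7 family, which represses LIN28, RAS and MYC and accumulates as tissues mature, had 2 rises and 4 decreases in 19 members, against 5.82% and 22.5% of all members, and 2 rises and 1 decrease after median-ratio scaling. The most abundant members held nearly one level: let-7f-5p had 31452 ± 2117 RPM at 8 weeks and 31530.2 ± 1959 RPM at 2 weeks (log2 change −0.004, adjusted p = 0.975), let-7g-5p had 22216 ± 821 RPM at 8 weeks and 22247 ± 1262 RPM at 2 weeks (−0.001, adjusted p = 0.992) and let-7a-5p had 19625 ± 1091 RPM at 8 weeks and 18808 ± 3063 RPM at 2 weeks (0.08, adjusted p = 0.603); after median-ratio scaling the log2 changes were 0.19, 0.19 and 0.27, with the sign of let-7f-5p and let-7g-5p turned, and none passed. The decreases were those of both arms of miR-98 and let-7i, and the rises those of the sheep-named oar-let-7a and oar-let-7f. Of the decreases miR-98-5p alone passed after median-ratio scaling (miR-98-3p, adjusted p = 0.0536; let-7i-3p, adjusted p = 0.343). let-7i-3p was also lost in 6 of the 10 fits without 1 library, those without 2-week replicates 2 or 3 or 8-week replicates 1, 2, 4 or 5, with adjusted p of 0.0685 to 0.0875. miR-98-5p, named after its values were seen, measured 2141, 1830.2, 2334, 2567 and 2229.9 RPM at 8 weeks, against 4010.3, 3142, 3766, 2990.3 and 3353 RPM at 2 weeks. The ages did not overlap (log2 change −0.64 ± 0.12 SE, adjusted p = 0.00303; after median-ratio scaling −0.44, adjusted p = 0.0273). let-7i-5p, also named after its values were seen, had 6666 ± 744 RPM at 8 weeks and 9163 ± 964 RPM at 2 weeks (log2 change −0.46 ± 0.10 SE, adjusted p = 0.00691), and it missed the threshold after median-ratio scaling (adjusted p = 0.074). oar-let-7f measured 117, 104, 133.3, 107.4 and 135 RPM at 8 weeks, against 64.4, 70.5, 61.3, 81.2 and 56.8 RPM at 2 weeks (log2 change 0.83 ± 0.14 SE, adjusted p = 0.00206), and oar-let-7a rose with a log2 change of 0.77 (adjusted p = 0.0124). Both sheep-named entries were scarce beside let-7f-5p and let-7a-5p, with which they may share reads.

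Among 21 members linked to lipid and glucose metabolism, 3 rose and 2 fell (median log2 change −0.15), against 5.82% and 22.5% of all members. After median-ratio scaling 6 rose and 1 fell (median 0.04), against 13.2% and 14% of all members. The list includes miR-223-3p, a rise (log2 change 1.08) also in the leukocyte list, whose call was lost in most fits without 1 library. miR-107-3p and miR-103-3p, which repress caveolin and lower insulin sensitivity in mouse liver, both rose. miR-107-3p measured 606, 608, 592, 527 and 544.4 RPM at 8 weeks, against 415, 476, 336.6, 482 and 456 RPM at 2 weeks. The ages did not overlap (log2 change 0.42 ± 0.12 SE, adjusted p = 0.0217), but the call was lost without 8-week replicate 1 (adjusted p = 0.0534). miR-103-3p, named after its values were seen, had 2070.1 ± 223.2 RPM at 8 weeks and 1461 ± 283 RPM at 2 weeks with an overlap of 1 library of each age (log2 change 0.52 ± 0.15 SE, adjusted p = 0.0183). miR-33a-5p and miR-33b-5p, which in human lie within the SREBP genes and repress the cholesterol exporter ABCA1, were scarce and did not pass: miR-33a-5p had 2.98 ± 1.21 RPM at 8 weeks and 4.39 ± 1.95 RPM at 2 weeks (adjusted p = 0.307). The fallers were oar-miR-370-3p, which also belongs to the DLK1-DIO3 region (log2 change −0.81 ± 0.22 SE, adjusted p = 0.0157), and miR-130b-5p (log2 change −0.63 ± 0.19 SE, adjusted p = 0.0217). The call of miR-130b-5p was lost after median-ratio scaling (adjusted p = 0.0918). It was also lost without replicate 1 of either age, with adjusted p of 0.0535 and 0.0552. Both fallers, like miR-33, were named after their values were seen.

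Other rises in miRNAs without overlap were those of miR-365-3p, miR-140-5p and miR-204-3p. miR-365-3p measured 636, 548, 734, 522 and 464 RPM at 8 weeks, against 438, 288, 289, 407 and 419.8 RPM at 2 weeks (log2 change 0.66 ± 0.17 SE, adjusted p = 0.012). miR-140-5p, a miRNA of cartilage that is also found in liver, measured 522, 497.3, 461, 476 and 465 RPM at 8 weeks, against 344, 355, 351, 434 and 341.95 RPM at 2 weeks (log2 change 0.41 ± 0.11 SE, adjusted p = 0.0142). Its 2-week replicate 4 stood apart from the other 4 in the direction of the 8-week libraries. miR-204-3p was scarce, with 10.95 ± 0.85 RPM at 8 weeks and 7.11 ± 1.04 RPM at 2 weeks (log2 change 0.57 ± 0.15 SE, adjusted p = 0.0132). Among the falls outside the clusters above, miR-181d, a relative of the miR-181 miRNAs of lymphocyte and endothelial biology, measured 6.64, 3.62, 7.35, 4.95 and 4.80 RPM at 8 weeks, against 14.0, 13.3, 14.0, 7.51 and 12.5 RPM at 2 weeks (log2 change −1.04 ± 0.21 SE, adjusted p = 0.00537). Its 2-week replicate 4 was low and lay just above the highest 8-week library.

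The hepatocyte miRNAs did not pass the test. miR-122, which maintains cholesterol synthesis and hepatocyte identity in mouse, measured 152953, 136771, 182702, 156478 and 138324 RPM at 8 weeks, against 180882, 146349.5, 155435, 135834 and 154869 RPM at 2 weeks. Both ages covered nearly the same range (log2 change −0.01 ± 0.09 SE, adjusted p = 0.934; after median-ratio scaling 0.18, adjusted p = 0.209). Of the 9 hepatocyte members 0 rose and 0 fell at a median log2 change of 0.09 (2 at an unadjusted p under 0.05), and after median-ratio scaling 3 rose at a median of 0.28, so that for these the scaling set the calls. miR-148a-3p had 43732 ± 5518 RPM at 8 weeks and 44085 ± 6049 RPM at 2 weeks (adjusted p = 0.959) and miR-194 had 39115 ± 3387 RPM at 8 weeks and 37105 ± 5411 RPM at 2 weeks (adjusted p = 0.539). In the order of mean RPM, miR-122 was followed by miR-143-3p, miR-21-5p, miR-30a-5p, miR-26a-5p, miR-148a-3p, miR-194, let-7f-5p, miR-30e-5p and miR-101-3p. RPM takes no account of length, in which mature miRNAs differ little. These 10 miRNAs took 66.7% ± 0.618 of the summed RPM at 8 weeks and 66.6% ± 0.944 at 2 weeks (SD, n = 5 each), a difference of 0.108 percentage points (two-sided exact permutation test over 252 arrangements, p = 0.857). The 20 most abundant took 82.4% ± 0.35 at 8 weeks and 81.6% ± 0.819 at 2 weeks (difference 0.82 points, two-sided exact permutation test, p = 0.0873). miR-21-5p, a miRNA of growth and injury, spread widely at 8 weeks, between 67609 and 123808 RPM at 8 weeks and between 82312 and 105243 RPM at 2 weeks (adjusted p = 0.706). The 11 members of the miR-30 family had 0 calls in either direction (4 at an unadjusted p under 0.05) and 1 rise after median-ratio scaling. The 21 members of the miR-17-92 group, a proliferation-linked group and its paralogs, had 3 decreases and 0 rises, against 22.5% and 5.82% of all members. After median-ratio scaling 1 decrease was left.

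Some markers of other cell types rose at 8 weeks. The striated muscle miRNAs miR-1 and miR-133a-3p, which are encoded together and define skeletal and cardiac muscle, had the highest log2 changes among the calls beside oar-miR-26a. miR-1 measured 6063, 4944, 3652, 8455 and 11987 RPM at 8 weeks, against 1488, 2955, 2072, 3113 and 4288 RPM at 2 weeks. 8-week replicate 3 lay below the highest 2-week library, and replicate 5 was the highest at both ages (log2 change 1.302 ± 0.33 SE, adjusted p = 0.0103). miR-133a-3p measured 224, 180.3, 227, 264 and 427 RPM at 8 weeks, against 61.4, 93.4, 80.2, 113 and 231 RPM at 2 weeks. Here all 8-week libraries lay above the 2-week libraries other than replicate 5, which was again the highest at both ages (log2 change 1.28 ± 0.32 SE, adjusted p = 0.0105). Of the 5 muscle members 2 rose and 0 fell, against 5.82% and 22.5% of all members. After median-ratio scaling 2 rose, against 13.2% of all members. miR-499-5p, of slow and cardiac muscle, had 30.2 ± 9.10 RPM at 8 weeks and 34.4 ± 7.08 RPM at 2 weeks (adjusted p = 0.486). miR-206, of skeletal muscle and named after its values were seen, had 1.42 ± 0.97 RPM at 8 weeks and 6.99 ± 13.9 RPM at 2 weeks (adjusted p = 0.662). The summed muscle level was 3904 to 12447 RPM at 8 weeks and 1573 to 4592 RPM at 2 weeks; the part of muscle RNA or of expression in liver cells in these values was not tested.

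Of 9 leukocyte members 2 rose and 0 fell (median log2 change 0.64), against 5.82% and 22.5% of all members. After median-ratio scaling 4 rose, against 13.2% of all members. miR-342-3p (log2 change 0.061, adjusted p = 0.747), miR-155-5p (0.065, adjusted p = 0.846) and miR-342-5p (−0.382, adjusted p = 0.199) did not pass. Neither did miR-146b-5p (0.65), miR-146b-3p (0.17) and miR-223-5p (0.834). All of these but miR-342-3p were named after their values were seen. miR-150, of mature lymphocytes and named after its values were seen, measured 129, 269, 174, 227 and 192.4 RPM at 8 weeks, against 79.1, 95.6, 65.7, 156 and 102.96 RPM at 2 weeks. 8-week replicate 1 lay within the 2-week range (log2 change 1.002 ± 0.24 SE, adjusted p = 0.00921). miR-223-3p, of neutrophils and macrophages, measured 162, 584, 475, 418 and 299.1 RPM at 8 weeks, against 155.3, 329.2, 172, 95.8 and 155.3 RPM at 2 weeks. 8-week replicate 1 lay among the 2-week libraries and 2-week replicate 2 among the 8-week libraries, and the call (log2 change 1.08 ± 0.36 SE, adjusted p = 0.0353) held in 3 of the 10 fits without 1 library. It was lost without 2-week replicates 1, 3, 4 or 5 and without 8-week replicates 2, 3 or 4, with log2 changes of 0.88 to 1.09 and adjusted p of 0.0605 to 0.083. miR-146a, induced by NF-kappaB signalling, did not pass (log2 change 0.64 ± 0.28 SE, adjusted p = 0.106); it had between 1494 and 2656 RPM at 8 weeks and between 915 and 3052 RPM at 2 weeks, and it passed without 2-week replicate 4, the highest library of all, with a log2 change of 0.93. Summed over the leukocyte members, the level was 3242 to 4736 RPM at 8 weeks and 2049 to 4635 RPM at 2 weeks. miR-451-5p, the main miRNA of red blood cells, measured 3009, 3189, 3809, 3683 and 4581 RPM at 8 weeks, against 2199.7, 3289, 1097, 2927 and 1020.2 RPM at 2 weeks. The 2-week libraries spread widely, with replicates 3 and 5 low, and the call (log2 change 0.94 ± 0.30 SE, adjusted p = 0.0322) held in 5 of the 10 fits without 1 library. It was lost without 2-week replicates 3 or 5 and without 8-week replicates 3, 4 or 5, with log2 changes of 0.72 to 0.93 and adjusted p of 0.0618 to 0.0825. Its cluster partners miR-144-3p (adjusted p = 0.256) and miR-144-5p (adjusted p = 0.86) did not pass. The same 2-week replicates 3 and 5 were the ones high in miR-34b and miR-34c; a relation between these was not tested.

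The remaining marker lists gave few calls. Mesenchymal miRNAs (miR-143, miR-145, miR-199, miR-214; 12 members, 2 of them copies with identical values) had 0 calls (1 at an unadjusted p under 0.05), and 2 rises after median-ratio scaling. The endothelial miR-126 arms had 0 calls (0 at an unadjusted p under 0.05), and 1 rise after median-ratio scaling. The pancreas and endocrine list had 0 of 4 calls under every scaling (0 at an unadjusted p under 0.05). Biliary epithelial miRNAs gave 1 decrease in 5 members, against 22.5% of all members. It was that of miR-429 (log2 change −0.79 ± 0.23 SE, adjusted p = 0.0217). miR-429 did not pass after either other scaling, nor without 2-week replicate 4 (adjusted p = 0.0555) or 8-week replicate 4 (adjusted p = 0.0588). The summed levels were 122502 to 143483 RPM at 8 weeks and 102896 to 173948 RPM at 2 weeks for mesenchymal, 27847 to 34578 RPM at 8 weeks and 27469.8 to 29928 RPM at 2 weeks for endothelial, 710.4 to 1621 RPM at 8 weeks and 1152 to 1826 RPM at 2 weeks for biliary and 925 to 1095 RPM at 8 weeks and 624 to 1124 RPM at 2 weeks for pancreas and endocrine miRNAs, with overlap in each. miR-221 and miR-222, which rise in proliferating and cancerous liver in human, had 0 of 3 calls (1 at an unadjusted p under 0.05) at a median log2 change of 0.54 and 3 of 3 rises after median-ratio scaling. The part of changes in cell composition in the results above was not tested.

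**Figure D2:**
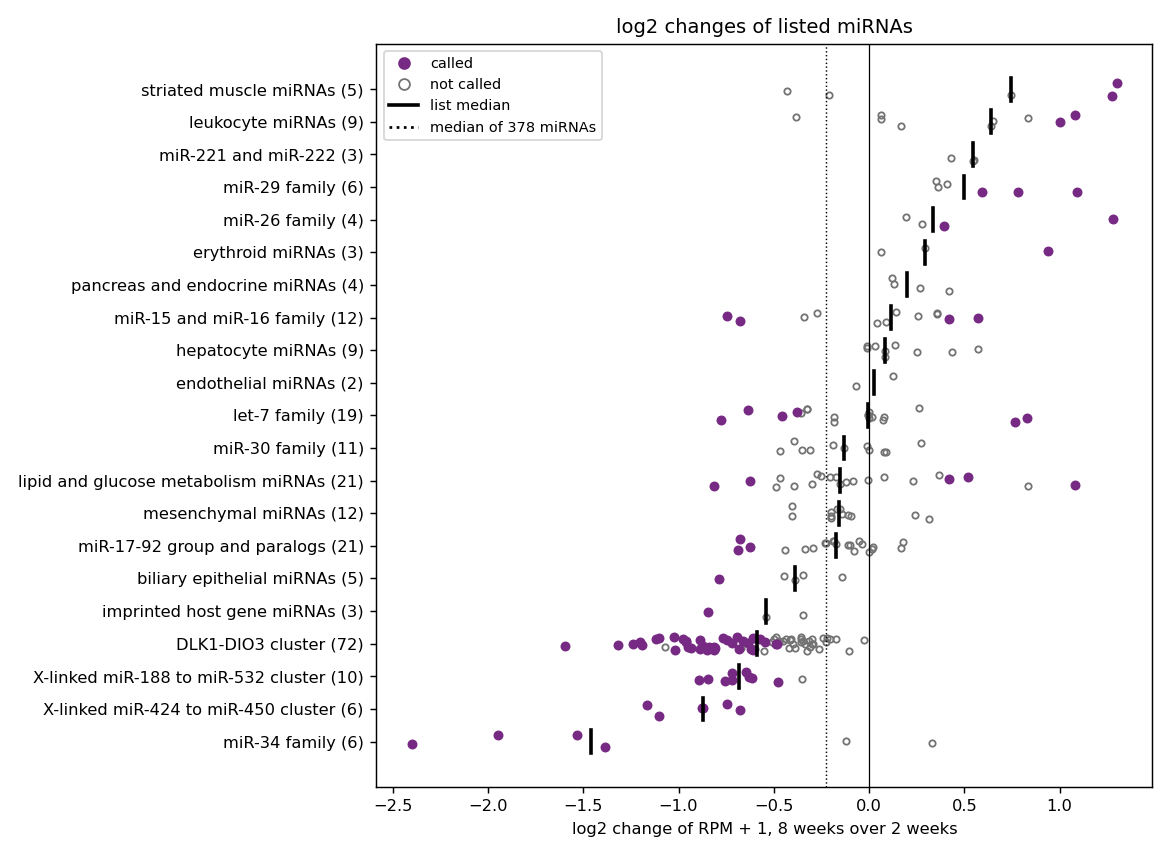
log2 change of RPM + 1, 8 weeks over 2 weeks, for every member of each list (number of members in brackets), with filled points for called miRNAs, open points for the others, bars at list medians and a dotted line at the median of all members. The miR-34 family (median −1.46), both X-linked clusters (−0.87 and −0.68), DLK1-DIO3 (−0.59), imprinted hosts (−0.54) and biliary miRNAs (−0.39) lie left of the dotted line at −0.23. All other list medians lie right of it. The highest are those of the muscle, leukocyte, miR-221 and miR-222, and miR-29 lists (0.74, 0.64, 0.54 and 0.50).

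Both arms of a precursor were members for 124 precursors, 123 with distinct values. The log2 ratio of the 5p to the 3p arm, with 1 RPM added to each arm, was tested by limma over the 123. It differed between ages in 0 of them at an adjusted p under 0.05 (0%), and 26 had an unadjusted p under 0.05. Where an arm was near 1 RPM, the added 1 RPM weighs on the ratio and on its change. The 5 smallest p shared an adjusted p of 0.0512. In miR-29b the 5p arm was scarce, and the log2 ratio was −6.15 ± 0.38 at 8 weeks and −5.42 ± 0.20 at 2 weeks (SD, n = 5 each; difference −0.73 ± 0.18 SE). In miR-16a the log2 ratio was 12.2 ± 0.179 at 8 weeks and 11.5 ± 0.43 at 2 weeks (difference 0.77 ± 0.20 SE), with a 3p arm of 1.62 RPM at 8 weeks and 2.36 RPM at 2 weeks. The other three were miR-1185 (difference 0.75 ± 0.17), miR-34c (−0.87 ± 0.23) and miR-374b (0.62 ± 0.17). The count was 6 without 2-week replicate 2, 3 without 8-week replicate 3, 2 without 2-week replicate 4 or 8-week replicate 2, and 16 with a pseudocount of 10.

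The means of the called miRNAs were followed through the other ages. Of the 22 that rose, 18 had a 4-week mean between the 2-week and 8-week means, and 13 were higher in mean at every step from 1 day to 12 weeks; of the 85 that fell, 74 had a 4-week mean in between and 62 were lower in mean at every step. The steps next to the comparison share its libraries and are a description. These counts were not made over all members, so no background share stands beside them. Calls were selected by their gap between 2 and 8 weeks, which favours a 4-week mean in between. miR-29a-3p averaged 3461, 4378, 5947, 7547 and 9271 RPM at 1 day, 2, 4, 8 and 12 weeks. miR-29b-3p, in the same order, averaged 87.6, 97.9, 107.4, 211 and 216.9 RPM, with its step between 4 and 8 weeks. miR-542-3p was lower in mean at each step, with 7039, 5612, 3411, 2477 and 1425 RPM. miR-34c-5p, in contrast, was highest at 2 weeks, with 78.7, 115, 36.2, 17.5 and 11.1 RPM at the 5 ages in order. miR-122 stayed within a narrow band, with means of 158013, 154674, 162132, 153445 and 168623 RPM.

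**Figure D3:**
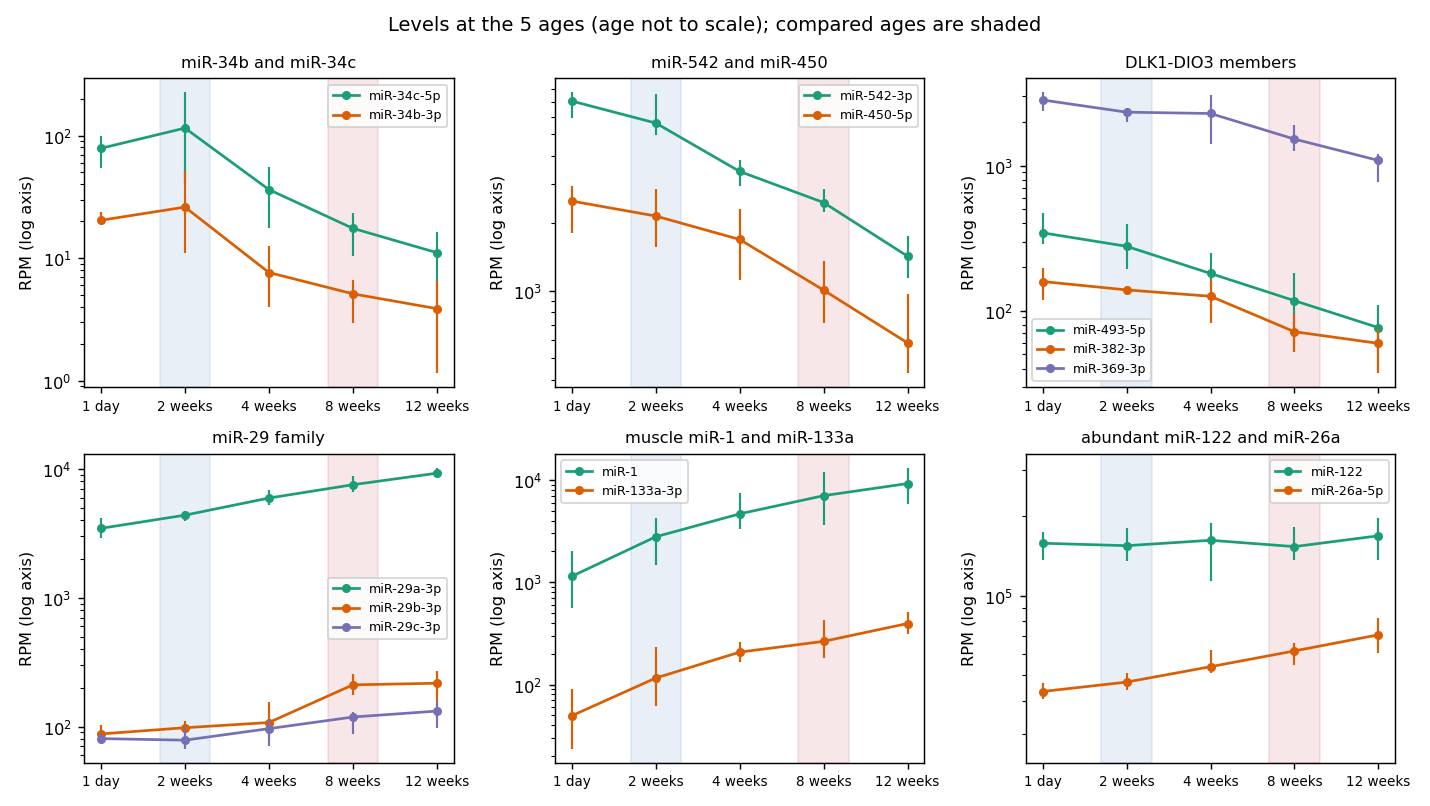
Mean RPM (points, log axis) and the range from lowest to highest library (lines, n = 5) at the 5 ages for the miRNAs named in each panel, with the compared ages shaded. The miR-34b and miR-34c means peak at 2 weeks, miR-542 and miR-450 are lower at every later age, and the miR-122 ranges overlap at all ages.

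Libraries outside the comparison gave the same directions. The 12-week and 1-day libraries, which share none with the comparison, were fitted apart over the same members, and 269 were called (71.2%), 51 higher (13.5%) and 218 lower (57.7%) at 12 weeks. Of the calls at 8 weeks against 2 weeks, 105 were also called there with the same sign (20 higher, 85 lower), which is 98.1% of the calls at 8 weeks and 39% of the 269, and 0 were called with the opposite sign. After median-ratio scaling 100 calls were shared. The 2 that did not pass there were miR-140-5p (12 weeks over 1 day, log2 change 0.20 ± 0.11 SE, adjusted p = 0.117) and miR-455-3p, named after its values were seen (0.32 ± 0.16 SE, adjusted p = 0.0703). For miR-542-3p the log2 change of 12 weeks over 1 day was −2.32 ± 0.13 SE, adjusted p = 1.94e-09, for miR-34c-5p −2.80 ± 0.26 SE, adjusted p = 3.77e-07, and for miR-29a-3p 1.43 ± 0.10 SE, adjusted p = 4.95e-08. For miR-1 it was 3.10 ± 0.30 SE, adjusted p = 4.62e-07.

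**Figure D4:**
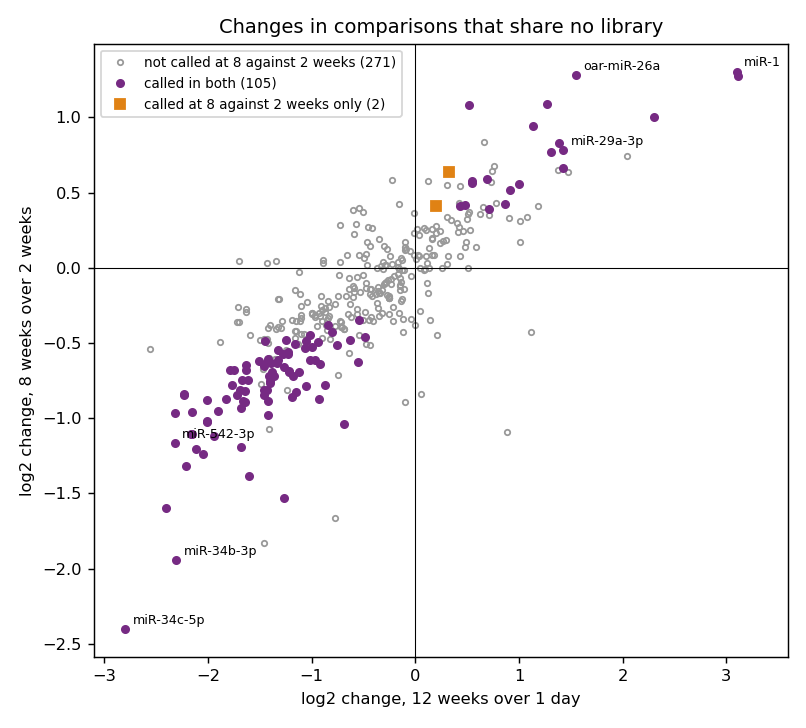
log2 change of 8 weeks over 2 weeks (vertical) against 12 weeks over 1 day (horizontal) for all members, with filled points for the 105 called in both, squares for the 2 called at 8 against 2 weeks only and open points for the rest. All calls lie in the lower left or the upper right quadrant.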

How the data were processed

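Small RNA of goat liver was sequenced at 5 ages with 5 libraries each, and the 10 libraries of 8 weeks and 2 weeks were compared. Per the labels' protocols, RNA was taken from frozen liver with Trizol and libraries were made with a kit for stranded total RNA. A size selection, adapter trimming, the genome build, the miRNA reference and the treatment of reads with more than one match are not given in the labels used here. The submitters' processing notes list Bowtie 1.1.1, a short-read aligner. The values in the deposited table are RPM, reads scaled to one total per library, a unit read from the values because no header names it: each column of the 10 libraries sums to 1010980.5 to 1018216, and every value under 20 RPM was a whole multiple of the value of 1 read to within 0.1 read. That value gave the total reads per library; the limits from 3 reads cover counting error only.

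Entries at 1 RPM or more in at least 5 of the 10 libraries were tested with limma 3.58.1 (R 4.3.3, variance trend) on log2(RPM + 1), with Benjamini-Hochberg adjustment over all members, and called at an adjusted p under 0.05. Fold changes on that scale understate the change of scarce miRNAs. Alternatives were median-ratio and TMM scaling over the members, pseudocounts of 0.1 and 10, other filters, a 2-fold limit, all 25 libraries, a replicate term and each library left out; the scripts were tested on simulated data. Sums and shares used Python 3.11.15 (numpy 2.4.6, scipy 1.17.1). Neighbouring miRNA genes came from the RefSeq annotation of assembly ARS1.2, which matched 334 members by name; it gave neighbours and host genes only.

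The text names the called miRNAs with the largest changes without overlap at 10 RPM or more (12 per direction, of which 11 rises existed), the 10 most abundant, the top 3 of every list by abundance, and the miRNAs and arm ratios with the 5 smallest p. Most others are marked. miR-449a-5p, miR-98-3p, let-7i-3p and miR-424-3p are not marked, but they too fall outside this rule and were named after their values were seen. The members, lists and this rule were chosen with earlier results of these data known.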

Additional observations from a re-analysis of the deposited data

Results flagged for a closer look

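Among the 156 groups of 5 libraries looked at for named miRNAs, 9 held 1 library that stood apart from the other 4 of its age by a gap large beside the whole range. Chance gives about 1 in 20, and the 9 flags are near that share, so that the libraries below are a description only. At 8 weeks, replicate 3 was low in miR-126-5p, an endothelial miRNA, with 3389 RPM against 3757 to 3875 RPM in the others, and in miR-29c-3p, with 87.9 RPM against 121 to 131 RPM. The same library was high in miR-362-5p, with 203 RPM against 167 to 175 RPM. 8-week replicate 5 was high in miR-411b-5p of the DLK1-DIO3 region, with 43.9 RPM against 26.2 to 30.9 RPM.

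At 2 weeks, replicate 4 was high in miR-146a, with 3052 RPM against 915 to 1309 RPM in the others, and in miR-140-5p, with 434 RPM against 341.95 to 354.62 RPM, and low in miR-181d, with 7.51 RPM against 12.5 to 14.0 RPM. In each of these 3 miRNAs it lay on the side of the 8-week libraries. 2-week replicate 2 was high in miR-323b, with 32.0 RPM against 20.96 to 23.08 RPM, and 2-week replicate 3 in miR-542-3p, with 7560.03 RPM against 4947 to 5489 RPM.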

How the results depend on the processing

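All calls kept their direction under every alternative that tested them, and their number, 22 higher and 85 lower, was 110 in all without the filter, 93 at a mean of at least 10 RPM, 105 with a pseudocount of 10, 119 with all 25 libraries, and 91 to 111 without 1 library (19 to 23 higher, 71 to 91 lower). The directions shifted with the scaling, to 50 higher and 53 lower after median-ratio scaling and 47 higher and 58 lower after TMM; 32 decreases no longer passed after median-ratio scaling and 28 further miRNAs rose, as both scalings move the log2 changes upward. A limit of 2-fold left 22 calls, 6 higher and 16 lower. Replicate numbers did not pair the ages: same-numbered libraries deviated with correlations of −0.45 to 0.14, and none matched its own number best. With the replicate block 94 miRNAs were called, 19 higher and 75 lower, and 3 arm ratios. For arm ratios the count of 0 was 16 with a pseudocount of 10, 2 with both arms at 10 RPM or more, and 0 to 6 without 1 library. The share of the 10 most abundant differed by −0.215 to 0.376 points without 1 library, and that of the 5 most abundant by −0.0348.

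Of the 77 named miRNAs, 35 were called, and 31 of these passed under every alternative but the 2-fold limit. The sign of 14 others, uncalled in either scaling, turned from below 0 to above it, given here after median-ratio scaling and after TMM: let-7f-5p 0.19 and 0.16, let-7g-5p 0.19 and 0.16, miR-122 0.18 and 0.15, miR-126-5p 0.125 and 0.09, miR-143-3p 0.081 and 0.046, miR-148a-3p 0.18 and 0.15, miR-21-5p 0.11 and 0.077, miR-25-3p 0.12 and 0.082, miR-27b-3p 0.041 and 0.006, miR-30a-5p 0.19 and 0.16, miR-30e-5p 0.065 and 0.029, miR-34a 0.07 and 0.036, miR-92a-3p 0.16 and 0.12, and miR-92b 0.086 and 0.051. With the 10 most abundant set aside let-7g-5p had 0.004. Without 1 library the log2 change crossed 0 for let-7a-5p (−0.009 to 0.15), let-7f-5p (−0.027 to 0.032), let-7g-5p (−0.032 to 0.021), miR-122 (−0.078 to 0.045), miR-144-5p (−0.11 to 0.22), miR-148a-3p (−0.077 to 0.066), miR-21-5p (−0.21 to 0.011), miR-30a-5p (−0.074 to 0.062), miR-342-3p (−0.028 to 0.13), miR-34a (−0.23 to 0.007), miR-7-5p (−0.01 to 0.21) and miR-92a-3p (−0.13 to 0.049). Count-based tests were planned for the reads behind the RPM and were not run: although every low value was a whole multiple of 1 read, 71 to 97 values per library stood at 20 reads or less, under the minimum of 100 set for such a test. At 1 RPM a library holds 7.68 to 11.35 reads, which limits what can be said of scarce arms such as miR-34b-5p.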

Other observations

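The lists held 236 of the members. Outside the lists 26 members were called, 6 higher and 20 lower at 8 weeks, and 11 of these also after median-ratio scaling. As shares of the members outside the lists, both directions lay below the 5.82% higher and 22.5% lower of all members. The 6 rises were those of miR-365-3p, miR-204-3p and miR-140-5p, described above, and of miR-204-5p, miR-455-3p and miR-490, named, like the decreases that follow, after their values were seen. miR-204-5p averaged 3167 ± 339 RPM at 8 weeks and 2388 ± 325 RPM at 2 weeks (SD, n = 5 each; log2 change 0.41 ± 0.12 SE, adjusted p = 0.0191 in limma), and it missed the threshold without 8-week replicate 4 (adjusted p = 0.0541). miR-455-3p, a miRNA of cartilage and brown fat in mouse, averaged 918 ± 217.2 RPM at 8 weeks and 589 ± 132 RPM at 2 weeks (0.64 ± 0.19 SE, adjusted p = 0.0217), and it missed the threshold without 2-week replicate 3 or 8-week replicates 1 or 3 (adjusted p of 0.0535 to 0.0547). miR-490 (0.56 ± 0.19 SE, adjusted p = 0.0388) held in 3 of the 10 fits without 1 library, and was lost without 2-week replicates 1 to 4 or 8-week replicates 1, 2 or 5 (adjusted p of 0.0534 to 0.0873).

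Several of the decreases lay in neighbouring genes by RefSeq (ARS1.2). Their counts stand against 22.5% of all members called lower in the deposited RPM and 14% after median-ratio scaling. miR-301a and miR-454, within SKA2, a gene of the mitotic spindle, fell in 3 of 3 members, led by miR-454-3p with 43.8 ± 5.13 RPM at 8 weeks and 79.6 ± 23.0 RPM at 2 weeks (log2 change −0.81 ± 0.18 SE, adjusted p = 0.00691), and 2 of 3 fell after median-ratio scaling. The third, miR-301a-3p (−0.66 ± 0.20 SE, adjusted p = 0.0256), missed the threshold without 2-week replicates 1 or 3 or 8-week replicates 1, 2 or 4 (adjusted p of 0.0539 to 0.0631). miR-181c and miR-181d fell in 2 of 3 members, also after median-ratio scaling, with miR-181c-5p at 20.8 ± 3.97 RPM at 8 weeks and 36.4 ± 5.73 RPM at 2 weeks (−0.78 ± 0.17 SE, adjusted p = 0.00679). miR-374b and miR-421 fell in 2 of 3 members, and in 0 of 3 after median-ratio scaling. miR-340-5p averaged 540.3 ± 89.6 RPM at 8 weeks and 877 ± 168 RPM at 2 weeks (−0.69 ± 0.16 SE, adjusted p = 0.00691; after median-ratio scaling −0.50, adjusted p = 0.0483). miR-148b-3p, which shares its seed with miR-148a, averaged 1878 ± 106.6 RPM at 8 weeks and 2389 ± 197 RPM at 2 weeks without overlap (−0.35 ± 0.10 SE, adjusted p = 0.0158), and it did not pass after median-ratio scaling (adjusted p = 0.345).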
